A study of Mus musculus with 10 samples.

Results

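The mitochondrial ribosomal protein genes were taken from the deposited expression table as the rows named Mrpl or Mrps with a number and at most 1 letter, which left out the pseudogene Mrps36-ps1. The rule found 76 genes among 25965 features, 49 of them for proteins of the large subunit of the mitochondrial ribosome, 26 for proteins of the small subunit and 1, Mrps36, for a protein that is not part of the ribosome. The RNA-seq libraries came from male C57/Bl6 mouse embryonic stem cells (mESCs), in 5 groups of 2 libraries. Both lines were derived under the Keniry2022 conditions in 2i/LIF, a medium with inhibitors that keeps mESCs naive, and were split at passage 0 (p0). Keniry2022 cells (labelled New or Off) grew without a substrate and were passaged every day. Mulas2019 cells (labelled Old or On) grew on gelatin and were passaged less often. Per the study, Keniry2022 cells were also plated more densely, in more medium and in plates not treated for tissue culture. The parts of these features in a difference between the methods cannot be told apart. Cells were collected at p0 and after 10 and 20 passages (p10 and p20) under each method, so that p20 Keniry2022 and p10 Mulas2019 had spent similar numbers of days in culture. The 4 libraries of a method are 2 lines at 2 passages, so the p-values measure the spread between these libraries and not between independent derivations.

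The mitochondrial ribosome translates the few mRNAs that are encoded in mitochondrial DNA, all of them for core subunits of the respiratory chain and the ATP synthase. Its RNAs are mitochondrial, but every one of its proteins is encoded in the nucleus, made in the cytosol and imported, so that many scattered nuclear genes have to supply the parts of a single particle. Some of the proteins have a homologue in the bacterial ribosome and others are found only in mitochondria. Naive mESCs respire actively, and their mitochondria change in shape and use as the cells leave the naive state.

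The genes lay on 17 chromosomes, with 10 on chromosome 11, 8 on chromosome 17 and none on the X. RefSeq promoters (GRCm38.p6, 250 bases before to 50 after a start) matched 67 of the genes, with 73 starts. The letters CCGGAAG, the core of sites for ETS factors such as GABPA, stood on either strand in 24 of these 73 promoters (32.9%), against 18.6% of the 10122 promoters of features in the tests and 8.86% of all 32851 promoters. AAGATGGC, the core of YY1 sites, stood in 12 (16.4%, against 4.57% and 2.75%), and GCATGCGC, from the site of NRF1, in 8 (10.96%, against 5.72% and 2.71%). The E-box letters CACGTG, bound by MYC and its partners among others, stood in 7 (9.59%, against 10.6% and 7.15%), the GC box letters GGGCGG in 38 (52.1%, against 64.4% and 35.7%) and the TATA box letters TATAAA in 5 (6.85%, against 6.61% and 13.6%). A match is a description of these letters and not a binding site. The 250 bases before the start are shown for 3 genes whose level differed between the methods (Mrpl22 at chr11:58171414-58171663 and Mrpl52 at chr14:54426659-54426908, both on the + strand, and Mrps22 at chr9:98601680-98601929 on the - strand) and 2 whose level did not pass the test (Mrps18a at chr17:46110754-46111003 on the + strand and Mrpl48 at chr7:100583131-100583380 on the - strand, 1 of its 4 listed starts). Capitals mark CCGGAAG and GCATGCGC or their reverse complements.
Mrpl22: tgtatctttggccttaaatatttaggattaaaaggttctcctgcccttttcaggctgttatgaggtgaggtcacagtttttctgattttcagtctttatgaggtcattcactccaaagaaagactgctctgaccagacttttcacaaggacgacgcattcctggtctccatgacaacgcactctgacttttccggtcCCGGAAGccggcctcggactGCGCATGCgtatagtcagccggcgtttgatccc
Mrpl52: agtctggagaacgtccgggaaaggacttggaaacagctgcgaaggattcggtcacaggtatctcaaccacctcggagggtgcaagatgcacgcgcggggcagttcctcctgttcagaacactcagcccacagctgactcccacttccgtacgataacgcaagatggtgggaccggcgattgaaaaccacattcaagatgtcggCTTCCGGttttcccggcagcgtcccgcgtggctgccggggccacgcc
Mrps22: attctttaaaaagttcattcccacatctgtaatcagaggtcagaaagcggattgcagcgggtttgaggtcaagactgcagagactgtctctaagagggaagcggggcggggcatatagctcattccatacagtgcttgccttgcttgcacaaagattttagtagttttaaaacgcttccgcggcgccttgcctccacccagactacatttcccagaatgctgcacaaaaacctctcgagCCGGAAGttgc
Mrps18a: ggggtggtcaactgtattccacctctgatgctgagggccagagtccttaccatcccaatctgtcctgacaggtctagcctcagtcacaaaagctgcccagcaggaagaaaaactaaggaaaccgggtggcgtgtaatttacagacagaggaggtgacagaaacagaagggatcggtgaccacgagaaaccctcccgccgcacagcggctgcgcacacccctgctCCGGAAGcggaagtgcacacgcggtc
Mrpl48: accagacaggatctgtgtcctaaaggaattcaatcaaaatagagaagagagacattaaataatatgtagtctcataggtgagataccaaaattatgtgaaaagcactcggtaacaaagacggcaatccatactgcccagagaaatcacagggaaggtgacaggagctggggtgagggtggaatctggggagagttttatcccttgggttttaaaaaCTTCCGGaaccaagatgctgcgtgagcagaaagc
The CCGGAAG letters began 53 bases before the start in Mrpl22, followed by GCATGCGC at 33 bases, and 47, 11, 26 and 34 bases before it in Mrpl52, Mrps22, Mrps18a and Mrpl48. All 5 genes shown carried the letters, so these sequences cannot show whether the letters go with a difference between the methods. Of the 8 genes with the largest differences, Mrpl22, Mrpl52 and Mrpl18 carried CCGGAAG, and Mrps11, Mrpl46, Mrpl11, Mrps24 and Mrpl47 did not. The median log2 difference between the methods was 0.30 in the 36 with at least 1 of the ETS, YY1 or NRF1 letters. It was 0.23 in 30 of the other 31, all but Mrpl23, which was not tested. Genes without a matched promoter are in neither class. The difference between the classes was not tested, and the same split over all features is not given here.

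The libraries held 24053996 to 30236823 reads, worked out from the deposited log2 RPKM (reads scaled to the exon length of the feature and the total of the library), with 85.9% to 88.8% of them in features. All 10 naive mESC markers, Pou5f1, Nanog and Esrrb among them, were above a log2 RPKM of 0 in every library, whereas all 5 fibroblast markers and all 4 markers of primed cells and mesoderm were below 0 in every library. The summed RPKM of the naive markers was 1536 to 1667 in the Keniry2022 libraries and 1415 to 1437 in the Mulas2019 libraries. That of the 5 trophoblast markers was 22.4 to 26.9 and 27.4 to 34.5, nearly all of it from Tfap2c and Eomes. The other 3 trophoblast markers were below 0 in every library. Of 6 primitive endoderm markers, 4 were below 0 in every library, and their list summed to 1.6 to 2.2 under Keniry2022 and 1.9 to 2.5 under Mulas2019. The 3 markers found for 2-cell-like cells summed to 1.7 to 2.3 and 1.5 to 3.8. The part of these markers in the results below was not tested. The cells are labelled male, but 5 libraries, 1 per group, held only 13 to 132 reads of 4 Y-linked genes, against 4578 to 8140 in the other 5. The library with few Y-linked reads is labelled replicate 1 in every group except p20 Keniry2022, where it is the library labelled replicate 2. The library labelled p0 replicate 1 stood apart in the genes studied here, as described further on. The study states that a line had lost its Y chromosome before the cultures were split.

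Most mitochondrial ribosomal protein genes were well expressed. A test required a log2 RPKM above 0 in 50% or more of a fit's libraries, which 75 of the 76 reached, and the median of their mean levels was 4.91, above that of 81.2% of all 11561 features that met the condition over 10 libraries. Their mean RPKM ranged from 2.28 to 87.3 with a median of 30.4, and 51 of the 75 lay within 2-fold of that median. Counting was deep, with at least 200 reads in every library for 73 of them.

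Mrpl42, a protein found only in mitochondrial ribosomes, had the highest mean level, a log2 RPKM of 6.39. It was followed by Mrpl52 (6.28), also without a bacterial homologue, by Mrpl12 (6.19), the stalk protein that recruits translation factors, and by Mrps16 (6.19) of the small subunit. At the other end, Mrps33 had a mean of 1.92 and Mrps10, a head protein of the small subunit, 1.86. Mrps36 was lower, at 1.13, and its name is historical, since the protein belongs to the α-ketoglutarate dehydrogenase complex. The excluded pseudogene Mrps36-ps1 had log2 values of 2.69 to 4.10, above those of Mrps36, which ran from 0.51 to 2.10, and how reads of such near-identical copies were shared out is not given in the sources used here, so the level of Mrps36 is uncertain.

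Mrpl23, a protein at the exit of the peptide tunnel, was the gene that did not meet the condition for a test. Its log2 RPKM was -1.42 and -1.19 in the p0 libraries, -0.57 and -0.55 in p10 Keniry2022, -1.73 and -1.25 in p20 Keniry2022, -1.04 and -1.75 in p10 Mulas2019 and -0.98 and -0.91 in p20 Mulas2019, from 15 to 35 reads. The p10 Keniry2022 libraries had the highest values, followed by the p20 Mulas2019 libraries. The values of p0, p20 Keniry2022 and p10 Mulas2019 overlapped. The gene is counted with the members but not with those tested.

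The first question was whether the whole set of genes differed between the culture methods. The summed RPKM of the 76 genes was 2404 and 2370 in p10 Keniry2022, 2330 and 2288 in p20 Keniry2022, 1962 and 1958 in p10 Mulas2019, and 1950 and 1984 in p20 Mulas2019. All 4 Keniry2022 libraries were above all 4 Mulas2019 libraries, with means of 2348 ± 50.1 and 1963 ± 15.0 (SD, n = 4), a ratio of 1.20. The starting cells gave 3738 in replicate 1 and 2393 in replicate 2. Replicate 2 was thus close to the Keniry2022 libraries, and replicate 1 was above every other library. The large and the small subunit moved together. The ratio of the methods was 1.20 for the large subunit and 1.18 for the small, and the summed level of the large subunit was 2.35 to 2.42 times that of the small in all 10 libraries.

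**Figure D1:**
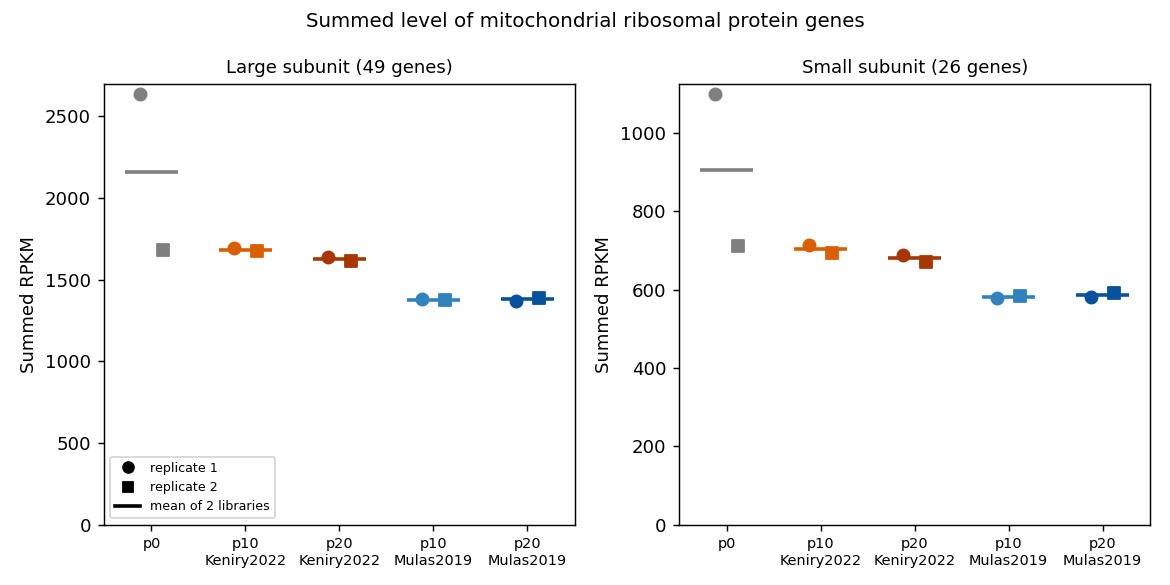
Summed RPKM of the 49 large subunit genes (left) and the 26 small subunit genes (right) in each library, by group, with a line at the mean of the 2 libraries. In both panels the 4 Keniry2022 libraries sit above the 4 Mulas2019 libraries, p0 replicate 2 sits near the Keniry2022 libraries and p0 replicate 1 sits above all others.

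Gene by gene, mitochondrial ribosomal protein genes were higher under Keniry2022. With p10 and p20 pooled (4 against 4 libraries), 56 of the 75 genes tested were higher and none lower at an adjusted p below 0.05 (limma, Benjamini-Hochberg over all features), where 25.9% of all 11654 features tested were called higher and 25.5% lower. The other 19 did not pass the test, and at an unadjusted p below 0.05 the counts were 59 higher and 0 lower (28.7% and 28.9% of all features). The median log2 difference of the 75 genes was 0.26, or 20.0% higher, against 0.00 over all features. All 4 Keniry2022 libraries were above all 4 Mulas2019 libraries in 53 of the 75, and the reverse held for 0. Over all features these shares were 23.1% and 23.4%. The differences were small and even. Among the 56 genes called they ran from 0.13 to 0.50 on the log2 scale, and 26 of them were below 0.3. The SD over the 4 libraries of a method was 0.06 under Keniry2022 and 0.07 under Mulas2019 for the median gene. In bulk RNA, a change in the makeup of the cells and a change in the RNA of each cell cannot be told apart.

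**Figure D2:**
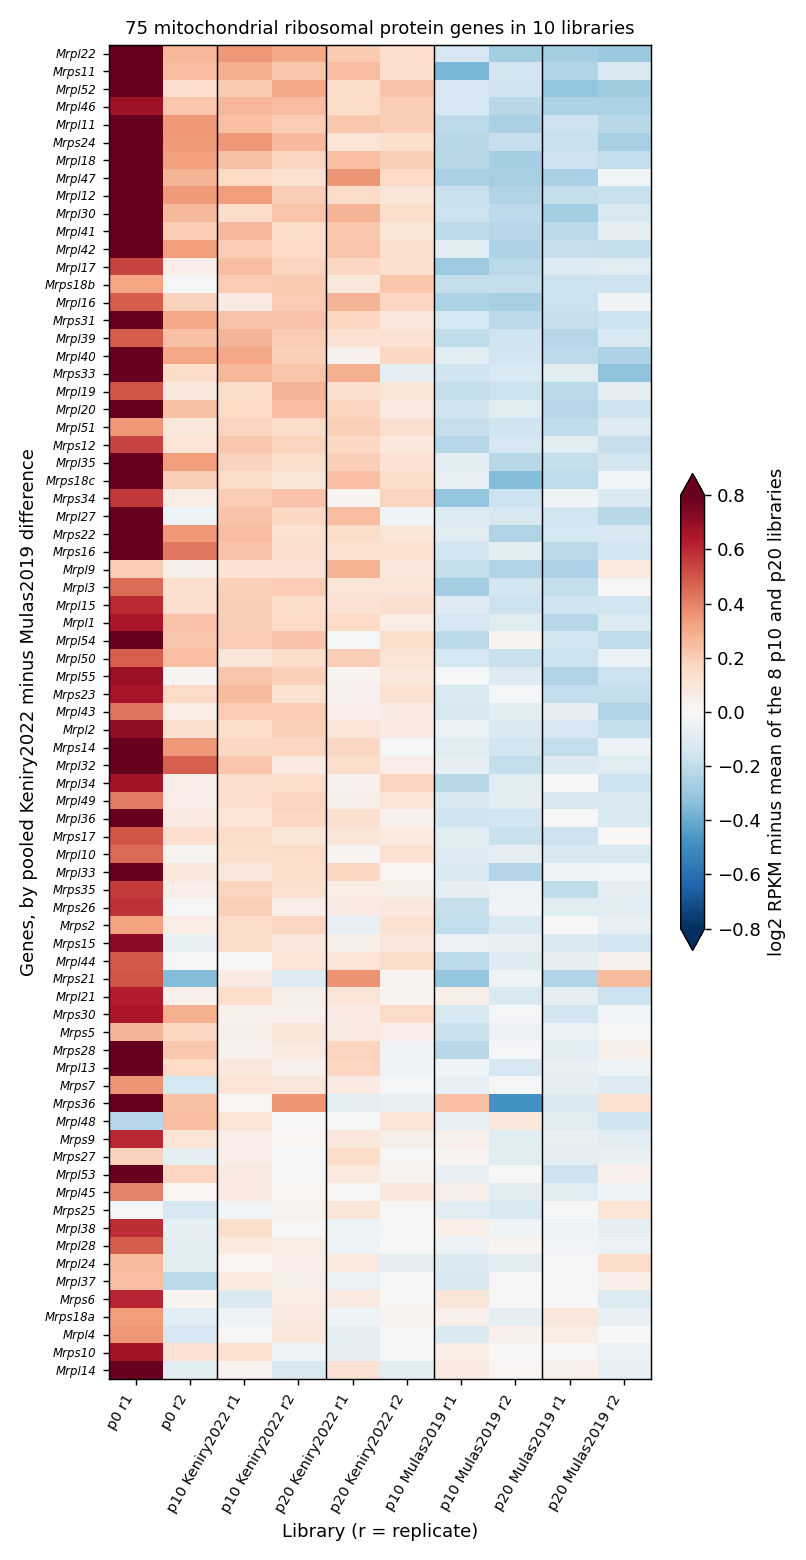
Log2 RPKM of the 75 genes tested (rows, ordered by the pooled difference between methods) in the 10 libraries (columns), each gene relative to its mean over the 8 p10 and p20 libraries, with the colour scale ending at 0.8 in either direction. The Keniry2022 columns are higher than the Mulas2019 columns in most rows, the last rows show little difference, and p0 replicate 1 is the highest column.

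The gene with the largest difference was Mrpl22 (chr11:58171661-58179565, + strand), whose protein lines the peptide exit tunnel. Its log2 RPKM was 4.14 and 4.09 in p10 Keniry2022, 3.997 and 3.921 in p20 Keniry2022, 3.65 and 3.51 in p10 Mulas2019, and 3.51 and 3.49 in p20 Mulas2019, after 4.59 and 4.05 at p0. All Keniry2022 values were above all Mulas2019 values, and p0 replicate 2 lay among the Keniry2022 values. The difference was 0.50 ± 0.06 (SE), 41.1% higher under Keniry2022 (limma, adjusted p = 0.000139).

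Mrpl11, the large subunit protein at the base of the stalk, had an even narrower spread. Its log2 RPKM was 4.67, 4.63, 4.64 and 4.63 in the Keniry2022 libraries and 4.22, 4.17, 4.27 and 4.21 in the Mulas2019 libraries, and 5.45 and 4.77 at p0. The methods did not overlap, and the difference was 0.43 ± 0.03 (limma, adjusted p = 3.8e-05). Mrpl18, a protein of the central protuberance, gave 6.16, 6.10, 6.17 and 6.12 against 5.71, 5.66, 5.76 and 5.73, with 6.84 and 6.25 at p0. Again the methods were apart, by 0.42 ± 0.03, with the smallest adjusted p of the set (3.57e-05, limma). The exons of Mrpl18 overlap Tcp1, and the strand setting of the counting is not given in the sources used here, so reads of the pair may be mixed.

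Mrpl52 and Mrpl46, proteins of the large subunit without a bacterial homologue, also differed between the methods. The log2 RPKM of Mrpl52 was 6.38, 6.48, 6.31 and 6.39 under Keniry2022 and 6.04, 6.01, 5.85 and 5.89 under Mulas2019, after 7.12 and 6.30 at p0, a difference of 0.45 ± 0.05 (limma, adjusted p = 0.000138). That of Mrpl46 was 5.12, 5.10, 5.01 and 5.05 against 4.72, 4.63, 4.60 and 4.60, after 5.53 and 5.07 at p0, a difference of 0.43 ± 0.04 (limma, adjusted p = 5.96e-05). Neither gene overlapped between the methods. Mrpl46 lies head to head with Mrps11 on chromosome 7, Mrpl46 at chr7:78775236-78783531 on the - strand and Mrps11 at chr7:78783119-78792989 on the + strand, so the genes overlap at their starts. Mrps11, a platform protein of the small subunit, gave a log2 RPKM of 3.75, 3.68, 3.71 and 3.60 under Keniry2022 and 3.10, 3.31, 3.22 and 3.34 under Mulas2019, with 4.54 and 3.71 at p0. The methods were apart by 0.45 ± 0.06 (limma, adjusted p = 0.000291), the largest difference of the small subunit.

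Mrps24, at the mRNA entry of the small subunit, and Mrpl47, at the tunnel exit of the large, completed the 8 genes with the largest differences. Mrps24 had log2 values of 5.93, 5.84, 5.69 and 5.72 under Keniry2022 and 5.36, 5.40, 5.40 and 5.32 under Mulas2019, after 6.76 and 5.92 at p0, with a difference of 0.43 ± 0.05 (limma, adjusted p = 0.000196). The exons of Mrps24 overlap Urgcp, so reads of this pair may also be mixed. Mrpl47 had values of 5.05, 5.01, 5.24 and 5.05 against 4.63, 4.62, 4.63 and 4.87, after 6.06 and 5.16 at p0, with a difference of 0.40 ± 0.07 (limma, adjusted p = 0.000941). Mrpl47 was apart between the methods, but 1 library of each method stood above the other 3, the libraries labelled p20 Keniry2022 replicate 1 and p20 Mulas2019 replicate 2. Both of these held many Y-linked reads. So did p10 Keniry2022 replicate 2 (5.01) and p10 Mulas2019 replicate 2 (4.62), which had the lowest values of their methods.

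**Figure D3:**
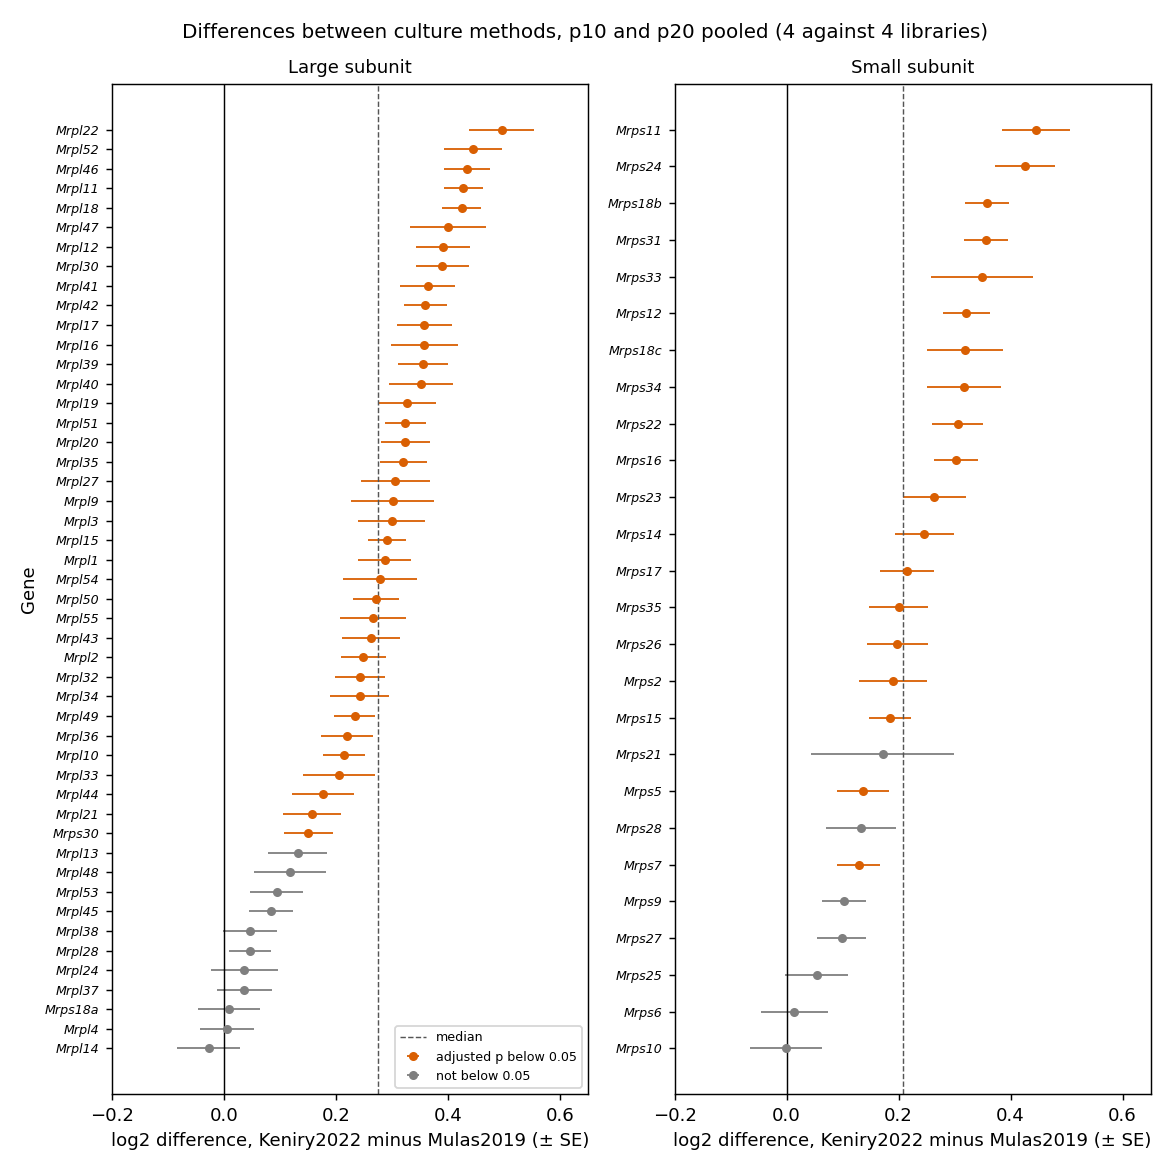
Log2 difference, Keniry2022 minus Mulas2019 with p10 and p20 pooled, with its standard error for the 48 large subunit genes tested (left) and the 26 small subunit genes (right), ordered by size, with filled orange points for an adjusted p below 0.05 and the median dashed. Differences run from -0.03 to 0.50, and the genes near 0 are found in both subunits.

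The most abundant genes moved with the rest. Mrpl42 differed by 0.36 ± 0.04 (limma, adjusted p = 0.000106), Mrpl12 by 0.39 ± 0.05 (adjusted p = 0.000192) and Mrps16 by 0.30 ± 0.04 (adjusted p = 0.000228), each without overlap. Among the least abundant, Mrps33 differed by 0.35 ± 0.09 (limma, adjusted p = 0.00976), from 2.06, 2.01, 2.08 and 1.72 under Keniry2022 and 1.63, 1.67, 1.70 and 1.47 under Mulas2019, and Mrps36 by 0.12 ± 0.16 (adjusted p = 0.549).

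Split by place in the ribosome, 37 of 48 large subunit genes tested and 19 of 26 small subunit genes were higher under Keniry2022, with medians of 0.28 and 0.21. Split further by origin, 24 of 30 large subunit genes with a bacterial homologue passed the test (median 0.29) and 13 of 18 without one (0.27), as did 12 of 17 (0.19) and 7 of 9 (0.26) in the small subunit. In each of these classes the share of genes called higher was above the 25.9% of all features, and the difference between the classes was not tested. The genes whose exons overlap another feature gave 17 of 25 and a median of 0.21, and those free of overlap 39 of 50 and 0.27.

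The Mrps18 family, 3 descendants of 1 bacterial small subunit protein, was not uniform. Mrps18b and Mrps18c, which sit in the small subunit, were higher under Keniry2022. The log2 RPKM of Mrps18b was 4.57, 4.58, 4.46 and 4.59 under Keniry2022 and 4.18, 4.18, 4.20 and 4.20 under Mulas2019 (difference 0.36 ± 0.04, limma, adjusted p = 0.000116), and that of Mrps18c was 4.918, 4.860, 5.003 and 4.912 against 4.70, 4.42, 4.56 and 4.75 (0.32 ± 0.07, adjusted p = 0.00331). Mrps18a, which despite its name sits in the large subunit, gave 2.60, 2.71, 2.61 and 2.66 under Keniry2022 and 2.68, 2.56, 2.73 and 2.57 under Mulas2019. Its values overlapped between the methods, with a difference of 0.01 ± 0.06 (limma, adjusted p = 0.905) that changed sign in 4 of 20 alternative analyses, and the difference between the family members was not tested. Mrps30, the other protein named for the small subunit that sits in the large, gave 5.53, 5.53, 5.55 and 5.64 against 5.36, 5.48, 5.34 and 5.47, a difference of 0.15 ± 0.04 (limma, adjusted p = 0.0162) that became -0.049 once exon length and GC content were corrected for. Mrpl55, the counterpart of bacterial L31, differed by 0.27 ± 0.06 (limma, adjusted p = 0.00396).

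The 19 genes that did not pass the test were Mrpl4, Mrpl13, Mrpl14, Mrpl24, Mrpl28, Mrpl37, Mrpl38, Mrpl45, Mrpl48, Mrpl53, Mrps6, Mrps9, Mrps10, Mrps18a, Mrps21, Mrps25, Mrps27, Mrps28 and Mrps36, with differences of -0.03 to 0.17. In 1 of them, Mrpl13, the methods did not overlap. The most abundant of the 19 was Mrps28, the counterpart of bacterial S1, with log2 values of 5.67, 5.71, 5.82 and 5.61 under Keniry2022 and 5.42, 5.63, 5.56 and 5.68 under Mulas2019 (difference 0.13 ± 0.06, limma, adjusted p = 0.097). Mrpl45, which anchors the ribosome to the inner membrane, gave 5.69, 5.64, 5.63 and 5.71 against 5.67, 5.53, 5.54 and 5.59 (0.08 ± 0.04, adjusted p = 0.0989), and Mrpl24 gave 5.56, 5.60, 5.62 and 5.47 against 5.43, 5.45, 5.53 and 5.69 (0.04 ± 0.06, adjusted p = 0.629). The methods overlapped in all 3 of these. Only Mrpl14 and Mrps10 had a difference below 0. Mrpl14, at the interface of the subunits, gave 4.56, 4.41, 4.65 and 4.45 against 4.60, 4.54, 4.57 and 4.46 (-0.03 ± 0.06, limma, adjusted p = 0.7), and Mrps10 gave 1.90, 1.75, 1.71 and 1.76 against 1.84, 1.78, 1.78 and 1.73 (-0.00 ± 0.06, adjusted p = 0.991). Both overlapped between the methods, and neither direction held in all alternative analyses.

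The 8 libraries of the pooled comparison were also divided by their Y-linked reads. The 53 genes without overlap in that comparison stay without overlap in both parts by construction. The counts below are therefore a description and no separate support. Among the libraries with many Y-linked reads (2 per method), 72 of the 75 genes had a higher mean under Keniry2022, with a median difference of 0.26, and both Keniry2022 libraries were above both Mulas2019 libraries in 61, against 32.8% of all features. Among those with few Y-linked reads the counts were 71 of 75 and 64, with a median of 0.25 and a share of 33.3% of all features. In the model of all 10 libraries, in which the p0 libraries take part in the estimate of the spread, 12 of the 75 genes were called in place of 56, all higher. The share of all features called in that model is not given here.

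At each passage the differences had a similar size, but few passed the test. At p10, 73 of 75 genes were higher under Keniry2022 (median 0.30), and 1 was called, Mrpl39, where 3.76% of all features were called higher and 4.77% lower. Mrpl39, a large subunit protein that resembles threonyl-tRNA synthetase, had log2 values of 5.11 and 5.04 in p10 Keniry2022 and 4.63 and 4.68 in p10 Mulas2019, after 5.32 and 5.07 at p0 (difference 0.42 ± 0.10, limma, adjusted p = 0.0411). The p10 groups of Mrpl39 did not overlap, and it was not called with the replicate number as a block. At an unadjusted p below 0.05, 19 of the 75 genes were higher at p10 (13.4% of all features) and 0 lower (13.6%). At p20, 69 of 75 genes were higher (median 0.21) and none was called (0.614% of all features higher, 1.54% lower), with 8 higher and 0 lower at an unadjusted p below 0.05 (8.04% of all features higher, 11.3% lower). Mrpl39 at p20 had values of 4.96 and 4.95 against 4.61 and 4.72, a difference of 0.29 ± 0.10 (limma, adjusted p = 0.164). The 5 groups shared 1 estimate of the spread. More genes were called at p10 and at p20 in the fits without 1 or the other p0 library. The shares of all features called in those fits are not given here.

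Matched in days of culture, p20 Keniry2022 was above p10 Mulas2019 in 69 of 75 genes, with a median of 0.23. None was called (2.84% of all features higher, 3.59% lower), against 12 higher and 0 lower at an unadjusted p below 0.05 (11.5% of all features higher, 12% lower). More genes were called without 1 or the other p0 library, in fits whose shares over all features are not given here. From p10 to p20, no gene of the set and 0 features in all were called under Keniry2022 (median -0.06) or under Mulas2019 (median 0.00), and at an unadjusted p below 0.05 the counts over the set were also 0, against 2.5% and 6.68% of all features. The difference between the methods was larger at p10 than at p20 in 57 of the 75 genes, but the test of that interaction called no gene of the set and 0 features (median -0.05), and 0 genes of the set had an unadjusted p below 0.05, against 3.5% of all features.

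The p0 libraries place these levels relative to the starting cells, and the replicates were apart from each other. The library labelled p0 replicate 1 was above replicate 2 in 74 of the 75 genes, by a median log2 of 0.57, against 0.02 over all features, and it had the highest of the 10 values in 72 of them, as it did in 35.3% of all features. Among the genes with the widest range over the libraries, Mrpl41, Mrpl12 and Mrps18c had their highest value by far in this library. Mrps36 also had one of the widest ranges, but its level is uncertain, as described above. Mrpl41, a large subunit protein found only in mitochondria, had a log2 RPKM of 6.23 in p0 replicate 1, 4.97 in p0 replicate 2, 5.04, 4.92, 4.99 and 4.87 under Keniry2022, and 4.56, 4.54, 4.56 and 4.69 under Mulas2019. Mrpl12, with 7.37 and 6.37 at p0, and Mrps18c, with 5.999 and 4.958, had the same shape. The gene that went the other way was Mrpl48, with 2.15 in p0 replicate 1, 2.63 in replicate 2, 2.49, 2.39, 2.38 and 2.49 under Keniry2022, and 2.31, 2.47, 2.29 and 2.22 under Mulas2019.

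Exon length moved with the difference between the p0 libraries. Over all 11561 features, Spearman's rho between exon length and the log2 difference of p0 replicate 1 from replicate 2 was -0.58, and over the 75 genes it was -0.46. These are correlations across genes of the same 2 libraries and not across replicates. Mitochondrial ribosomal protein genes are short, with a median exon length of 1700 bases against 3426 for all features tested. The 32 genes of up to 1500 bases differed by a median of 0.75 between the p0 libraries and the 43 longer ones by 0.46, against 0.51 and -0.05 over all features in the same length ranges. The part of exon length in the level of the set at p0 was not tested. Between the methods, the 32 shorter genes differed by a median of 0.29 (24 higher) and the 43 longer ones by 0.22 (32 higher). Over all features of these lengths the medians were 0.14 and -0.02, and 39.6% and 23.4% were called higher. Once exon length and GC content were corrected for, 51 of the 75 genes were called higher and 1, Mrps9, lower, with a median difference of 0.17. The shares of all features called after this correction are not given here.

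**Figure D4:**
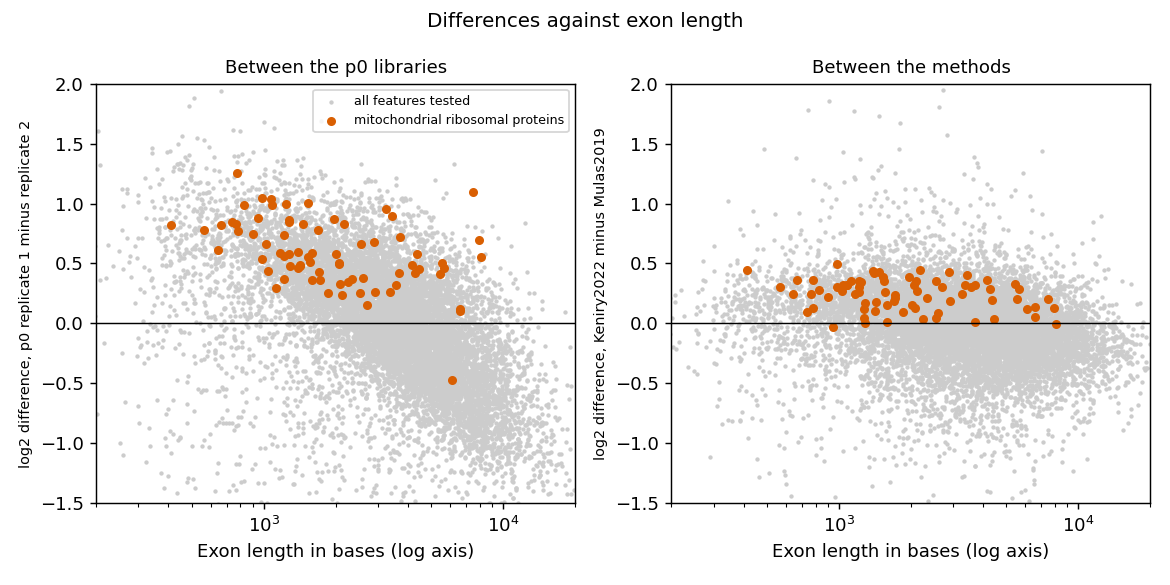
Log2 difference of p0 replicate 1 from p0 replicate 2 (left) and of Keniry2022 from Mulas2019 (right) against exon length on a log axis, for all features tested (grey) and the mitochondrial ribosomal protein genes (orange), with features outside the plotted range not drawn. On the left short features are higher in p0 replicate 1, with a Spearman's rho of -0.58 over all features, and on the right the genes lie mostly between 0 and 0.5 at all lengths.

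Compared with p0, the levels under Keniry2022 did not pass the test. In p10 Keniry2022, 71 of 75 genes were below the p0 mean (median -0.22) and none was called (0.0432% of all features higher, 0.156% lower), with 13 lower and 0 higher at an unadjusted p below 0.05 (11.6% of all features higher, 13.2% lower). In p20 Keniry2022 the median was -0.29 and none was called (0.0519% of all features higher, 0.147% lower), with 19 lower and 0 higher at an unadjusted p below 0.05 (13.3% of all features higher, 14.7% lower). These values rested on p0 replicate 1. Without it the medians were 0.04 at p10 and -0.02 at p20, and without p0 replicate 2 they were -0.52 and -0.56.

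Under Mulas2019 the genes were lower than at p0. In p10 Mulas2019, all 75 genes were below the p0 mean (median -0.52), and 39 were called lower and 0 higher, against 17.3% and 15.7% of all features. At an unadjusted p below 0.05, 55 were lower and 0 higher, against 24.9% and 24% of all features. In p20 Mulas2019, 73 of 75 were below it (median -0.47), and 32 were called lower and 0 higher, against 14.6% of all features lower and 14.7% higher. At an unadjusted p below 0.05, 54 were lower and 0 higher, against 22.7% and 24.4% of all features. Mrpl39 had the smallest adjusted p in both, with differences of -0.54 ± 0.10 (limma, adjusted p = 0.0135) and -0.53 ± 0.10 (adjusted p = 0.0163). Leaving out p0 replicate 1, the medians were -0.27 and -0.23. The direction was thus present against p0 replicate 2 alone, but the counts of 39 and 32 were not steady. They rose without p0 replicate 2. They fell without any 1 library of the groups not compared or either Mulas2019 library of the comparison, and fell to 0 with weights for library quality. The shares of all features called in these fits are not given here. In the order of the 10 libraries, p0 replicate 2 lay above all 4 Mulas2019 libraries in 57 of the 75 genes. It lay within the range of the 4 Keniry2022 libraries in 36, above it in 19 and below it in 20. The shares of all features with these placements of p0 replicate 2 are not given here, so they are not read as particular to the set. All 4 Mulas2019 libraries were below the other 6 in 50 genes, as in 15.8% of all features. The comparisons with p0 share the p0 libraries, and the comparisons between methods at 1 passage share theirs with those above.

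The genes rose and fell together over the libraries. Over the 8 libraries at p10 and p20, the correlation of a gene with the mean of the other 74 had a median Pearson's r of 0.89, and it was above 0.8 in 52 genes and below 0 in 2, with the lowest value, -0.19, in Mrpl14. Over all 10 libraries the median was 0.95, with p0 replicate 1 far above the rest. Among features outside the set, the 5 most like the mean of the set over 10 libraries were Dpy30 (r = 0.998), Gm10288, Serf2, Gm20390 and Tmem93, and over the 9 libraries without p0 replicate 1 they were Mki67ip (r = 0.996), Txndc9, Trappc1, Pnp and Rpl7l1. These lists have no gene in common. Over 10 libraries the r also reflects p0 replicate 1, where Dpy30 had 8.35 against 6.88 to 7.42 in the others. With so few libraries and the methods apart, an r of this size describes the pattern over these libraries, and its causes were not tested.

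The other components of mitochondrial translation were read from the same pooled comparison, against the 25.9% of all features called higher and the 25.5% lower. Of 6 proteins of the mitochondrial ribosome whose names do not begin with Mrp, 5 were higher under Keniry2022 (median 0.21). They were Ptcd3, with a mean log2 RPKM of 6.23 ± 0.02 (SD, n = 4) under Keniry2022 and 5.96 ± 0.03 under Mulas2019 (difference 0.27 ± 0.03, limma, adjusted p = 0.000119), Aurkaip1 (0.28 ± 0.05, adjusted p = 0.00117), Ict1, a peptidyl-tRNA hydrolase built into the large subunit (0.34 ± 0.07, adjusted p = 0.00176), Gadd45gip1 and Chchd1. Dap3, a GTP-binding protein of the small subunit, differed by -0.08 ± 0.06 (adjusted p = 0.302), with Keniry2022 values of 4.35 to 4.62 and Mulas2019 values of 4.43 to 4.63, which overlapped.

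Of 27 factors that assemble the ribosome or modify its RNA, 9 were higher and 2 lower (median 0.11). Fastkd2, which binds the large ribosomal RNA, differed by 0.43 ± 0.06 (limma, adjusted p = 0.000348), the methyltransferase Ftsj2 by 0.34 ± 0.05 (adjusted p = 0.000391) and the protease Spg7 by -0.23 ± 0.04 (adjusted p = 0.0013). Of 14 factors of initiation, elongation, termination and membrane insertion, 2 were higher and 0 lower (median 0.05), Oxa1l by 0.12 ± 0.04 (limma, adjusted p = 0.0227) and Mrrf by 0.23 ± 0.07 (adjusted p = 0.0236), whereas Gfm2 differed by -0.12 ± 0.05 (adjusted p = 0.0724). The share of translation factors called higher was thus below that of all features, while that of the ribosomal proteins was above it, and the difference between the lists was not tested.

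Of 13 genes for mitochondrial transcription and mRNA stability, 7 were higher and 0 lower (median 0.12). Tfb2m, an initiation factor of the mitochondrial RNA polymerase, differed by 0.59 ± 0.09 (limma, adjusted p = 0.000529), Pnpt1 by 0.23 ± 0.05 (adjusted p = 0.00507) and Ptcd1 by 0.20 ± 0.05 (adjusted p = 0.00829). Of 12 tested regulators of nuclear genes for mitochondria, 4 were higher and 1 lower (median 0.06). Myc, a transcription factor that activates genes of ribosome production and growth, was low. Its log2 values were 0.27 to 1.43 under Keniry2022 and -1.41 to -0.41 under Mulas2019, a difference of 1.95 ± 0.29 (limma, adjusted p = 0.000426). Myc passed the filter on low values only through the Keniry2022 libraries, so its call is a description and no support. Mycn, its abundant relative in mESCs, differed by 0.31 ± 0.07 (adjusted p = 0.00344) and Yy1 by 0.12 ± 0.03 (adjusted p = 0.00777). Gabpa, whose sites share the CCGGAAG letters, differed by 0.00 ± 0.04 (adjusted p = 0.939) and Nrf1 by 0.14 ± 0.05 (adjusted p = 0.055). The regulator called lower was Esrra, a nuclear receptor that activates genes for mitochondria, with a difference of -0.15 ± 0.06 (limma, adjusted p = 0.0496) and overlapping values of 3.402 to 3.499 under Keniry2022 and 3.477 to 3.722 under Mulas2019.

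Beside them stand the gene sets most like this one. Of 37 genes named as subunits of respiratory complex I, 26 were higher and 0 lower (median 0.21). Of 83 genes tested with names of cytosolic ribosomal proteins, 45 were higher and 8 lower (median 0.17). Under Keniry2022 the 8 called lower had mean log2 RPKM of 2.09 to 4.11 and the 45 called higher 3.67 to 10.7. How reads of near-identical copies were shared out is not given in the sources used here. Both lists were drawn up by name. Together they hold paralogues such as Rpl39l and Rpl10l and also Ndufa4, a complex IV protein despite its name. The summed RPKM of the complex I list under Keniry2022 was 1.15 times that under Mulas2019. The ratio was 1.14 for the cytosolic ribosomal protein list and 1.20 for the mitochondrial ribosomal proteins. Between the p0 libraries the ratios of replicate 1 to replicate 2 were 1.81, 1.69 and 1.56. The differences between these sets were not tested.

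**Figure D5:**
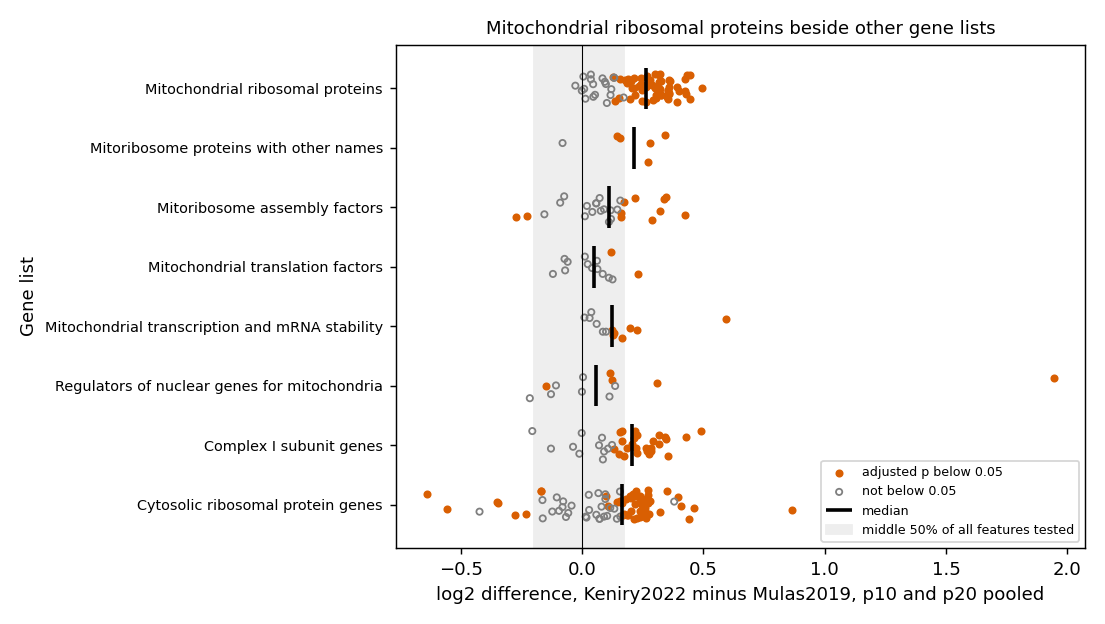
Log2 difference, Keniry2022 minus Mulas2019 with p10 and p20 pooled, of each gene tested in the mitochondrial ribosomal protein genes and 7 other lists, with filled points for an adjusted p below 0.05, a bar at each median and a grey band over the middle 50% of all features tested. The medians run from 0.05 for translation factors to 0.26 for the mitochondrial ribosomal proteins. The farthest point, at 1.95, is Myc, which passed the filter on low values only through the Keniry2022 libraries.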

How the data were processed

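RNA-seq was performed by the authors on 10 libraries of male mESCs in 5 groups of 2. Per the study's methods, single-end reads were trimmed, aligned to mm10 with HISAT2 and quantified with SeqMonk, whereas TopHat2 2.0.12 stands in the processing notes of the submitters, and replicates were not pooled. The values deposited under the name logCPM, and given by the study as RPM, give whole reads as log2 RPKM and not as log2 RPM, with 0 reads entered as 0.9 reads. Library totals, exon lengths and whole reads were worked out from these values, taking for each feature the shortest exon length at which its values are whole reads (99.997% of values within 0.1 reads). The whole reads were used as an alternative only. The lengths equalled those of GENCODE vM21 in 38 of the 76 genes. The feature name was taken as the identity of a gene, since in 15 genes the identifier in the table belonged to another feature, and 25 genes overlap another feature. The totals of 24053996 to 30236823 reads gave at least 55 reads per library in every gene tested.

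The members, the lists and the rule for named genes were chosen with earlier results of these data known. Features with a log2 value above 0 in at least 50% of libraries were tested with limma 3.58.1 in R 4.3.3 (moderated test with an intensity trend, two-sided, Benjamini-Hochberg over all features), after a check on simulated data. The pooled comparison used 8 libraries with no block, as the study pooled them (its own fit was voom on counts), and the other comparisons 1 model of the 5 groups. Alternatives changed the normalization, the filter, the pseudocount, the weights, the test, the block, the correction for length and the libraries. Values are given for the 8 largest differences without overlap, the most and least abundant genes, those with the widest range, the most abundant genes that did not pass, the Mrps18 family and genes with misleading names. The features most like the set over 8 libraries are not reported here. Values of Mrps22, Mrpl48 and Mrps9 were added after they were seen.

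Each line was split between the methods, so replicate numbers should mark the line. The replicate differences of p10 Keniry2022, p10 Mulas2019 and p20 Mulas2019 correlated at 0.52 to 0.63 across features, but those of p20 Keniry2022 correlated with them at -0.70 to -0.43, and the Y-linked reads are crossed in the same way, so a block with the p20 Keniry2022 numbers exchanged was added after seeing the data.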

Additional observations from a re-analysis of the deposited data

Results flagged for a closer look

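In groups of 4 libraries, 7 of 54 groups of values had 1 library far from the other 3, by a gap wider than Dixon's critical value. Chance alone marks about 1 in 20 groups. Under Mulas2019, Mrpl22 had a log2 RPKM of 3.65 in p10 replicate 1 against 3.49 to 3.51 in the others, Mrpl47 had 4.87 in p20 replicate 2 against 4.62 to 4.63, Mrpl41 had 4.69 in p20 replicate 2 against 4.54 to 4.56, and Mrpl23 had -1.75 in p10 replicate 2 against -1.04 to -0.91. Under Keniry2022, Mrpl47 had 5.24 in the library labelled p20 replicate 1 against 5.01 to 5.05, Mrps18b had 4.46 in that library against 4.57 to 4.59, and Mrps16 had 6.26 in p10 replicate 1 against 6.15 to 6.16. No value of these groups crossed into the range of the other method except in Mrpl23. The causes were not tested.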

How the results depend on the processing

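The pooled count of 56 genes stayed between 49 and 58 under 19 of 20 alternatives and was 12 in the model of all 10 libraries. Leaving out 1 library gave 51 to 57. With a replicate block it was 57, and 57 with the p20 Keniry2022 numbers exchanged. In 63 of the 75 genes the direction was the same under all 20. The shares of all features called under the alternatives are not given here, so the counts in this section are not set against a background. At p10, 1 gene became 0 with a replicate block (0 with exchanged numbers), median centring or no filter, 9 with the length and GC correction, and 54 with library quality weights or the 8 p10 and p20 libraries alone. Leaving out 1 library gave 0 to 54. At p20, 0 became 39 with weights, 4 with the length and GC correction and 41 with 8 libraries, and 0 to 41 without 1 library. Matched in days, 0 became 1 with quantile normalisation or log2(RPKM + 1), 44 with weights, 8 with the length and GC correction and 46 with 8 libraries, and 0 to 46 without 1 library. Against p0, the counts of 0 under Keniry2022 became 0 to 68 (p10) and 0 to 70 (p20) without 1 library, and the counts of 39 and 32 under Mulas2019 became 16 and 14 with no filter, 0 and 0 with weights, and 0 to 73 and 0 to 70 without 1 library. The replicate block changed no other count by over 1.5 times. The log2 ratio of summed levels, 0.26, was 0.31 as a difference of medians. The causes were not tested. The sign changed in 12 genes, with quantile normalisation Mrpl45 (-0.018), Mrpl24 (-0.059) and Mrps10 (0.11), with median centring Mrps10 (0.012), with weights Mrps10 (0.0079), with voom on recovered reads Mrps18a (-0.020), and with the length and GC correction Mrpl24 (-0.0078), Mrps36 (-0.019), Mrps10 (0.086) and Mrps30 (-0.049). Of these, Mrps30 had passed the test and the others had not. Mrpl4, Mrpl28, Mrpl37 and Mrps6 also changed sign under at least 1 alternative, and Mrps9 was called lower (-0.129) with that correction. Without 1 library, the differences ran from -0.021 to 0.221 for Mrps36, -0.042 to 0.023 for Mrps10, -0.071 to 0.0075 for Mrpl14 and -0.016 to 0.040 for Mrps18a. Depth limits Mrpl23 (15 to 35 reads) and Mrps36 (55 to 131).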
